A study of Mus musculus with 24 samples.

Results

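Polysome loading in the nucleus accumbens (Acb) was compared between rpS6P-/- knockin mice and their wild-type littermates, using the 12 Acb libraries among the 24 of the series. In the knockin, ribosomal protein S6 (rpS6) cannot be phosphorylated because its phosphorylatable serines are replaced by alanine. Both genotypes were littermates of mixed C57Bl/6/Sv129/ICR background and of both sexes, no drug or other treatment is given in the labels, and the substitution is carried by every cell of the animal. For each genotype there were 3 replicates of pooled mice, here called lysates. Each had 2 libraries, 1 of RNA from heavy polysomal fractions (more than 4 ribosomes) and 1 of total RNA from the whole lysate. By the study's methods, a replicate combined the heavy polysomal fractions of 2 samples. The labels do not say that a replicate number marks 1 shared lysate, so the pairing of libraries by that number is an assumption. The dorsal striatum (DS), with the other 12 libraries, served as comparison. Ages of the mice behind these libraries are not given in the sources used here.

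An mRNA under translation carries several ribosomes at once, and a sucrose gradient separates such polysomes from free mRNA and single ribosomes. The ratio of an mRNA in heavy polysomal fractions to that in the whole lysate is therefore read as its translational efficiency, here called loading. Phosphorylation of rpS6, a protein of the small ribosomal subunit, is a widely used marker of neuronal activity and of mTORC1 and ERK signalling, and the mRNAs of ribosomal proteins, which begin with a tract of pyrimidines (5′ TOP mRNAs), are classical targets of mTOR. Short coding sequences can hold few ribosomes at a time, so an mRNA's length bears on the fraction in which it sediments.

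The libraries held 14948045 to 34703044 assigned reads for heavy polysomal fractions and 9280589 to 18177175 for whole lysates. The summed level of 10 medium spiny neuron markers, the genes of the main striatal cell type, was 4387 to 4761 CPM in knockin and 4459 to 4752 CPM in wild-type whole lysates, which is a high level of the defining cell type of the labelled tissue, with overlap between genotypes. The summed level of 7 cortical excitatory neuron markers was 86.3 to 218 CPM in knockin and 88.5 to 175 CPM in wild-type whole lysates, with none of the 7 at 0 in any of them. Oligodendrocyte markers summed to 3122 to 4006 CPM in knockin and 3703 to 4297 CPM in wild-type whole lysates, with overlap and a lower range in knockin, and astrocyte markers to 1908 to 2651 and 2003 to 2514 CPM. Their part in the results was not tested. Microglia markers lay between 177 and 236 CPM. Endothelial markers summed to at most 19.0 CPM and choroid plexus markers to at most 57.7 CPM in whole lysates. The small noncoding RNA BC1 (*Bc1*) made up 18.1% to 26.1% of assigned reads in whole-lysate libraries and 0.897% to 3% in heavy polysomal ones.

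Not all Acb lysates behaved alike. Among genes in quintiles by the length of their protein, the median log2 loading of the shortest quintile exceeded that of the longest quintile by 1.34, 0.899 and 0.854 in the 3 wild-type lysates and by 0.763, 0.666 and 0.008 in the 3 knockin lysates. Knockin lysate 3 thus stood apart, through its heavy polysomal library, in which the shortest quintile lay 0.711 below the longest against −0.059 and −0.138 in the other knockin libraries. Wild-type lysate 1 stood at the opposite end. Counts of genes and medians of the main lists are therefore also given without either of these lysates, and values of single genes where leaving one out moved them by over 1.5 times.

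*Rps6* itself was read first. Its loading, as the ratio of scaled read counts, was 0.878, 0.869 and 0.625 in wild-type and 0.846, 0.861 and 0.854 in knockin lysates. The genotypes overlapped, with a log2 difference of 0.13 ± 0.21 (SE of the fit, n = 3 lysates per genotype) and an adjusted p of 0.914 in edgeR's quasi-likelihood test. Here and below, the SE comes from a fit whose gene-wise spread was shrunk fully to the trend over genes. It does not measure the spread of a gene's own lysates, and the p-values of this fit rest on the same shrunk spread. Read counts per gene do not show the exchanged serine codons, so they cannot check the genotype labels.

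With the 2 libraries of each lysate paired, the loading of 106 of 16687 genes differed between genotypes (0.635% of genes tested, edgeR quasi-likelihood test, Benjamini-Hochberg adjusted p under 0.05). It was lower in rpS6P-/- mice for 84 genes (0.503%) and higher for 22 (0.132%). At an unadjusted p under 0.05 there were 1920 genes, 1013 lower (6.07% of genes tested) and 907 higher (5.44%). Most of the 84 mRNAs with lower loading encoded very small proteins: their median length was 100 residues, against 467 over all genes tested, and 30 of the 84 belonged to lists of mitochondrial proteins. The 22 mRNAs with higher loading had a median protein length of 504 residues. Over all genes the median log2 difference was 0.04, and 7954 genes were lower and 8733 higher.

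The number of genes passing the test rested on individual lysates and on the form of the test. Without knockin lysate 3 it dropped from 106 to 6, of which 5 were among the 106 with the same direction, and without wild-type lysate 1 it dropped to 0, with 1050 genes at an unadjusted p under 0.05. Leaving out knockin lysate 1 gave 314 genes and leaving out wild-type lysate 2 gave 168. When the pairing of lysates was ignored no gene passed, with 1992 at an unadjusted p under 0.05 against 1920 when paired (edgeR). The 2 libraries of a lysate shared little variation, as their deviations from group means correlated by −0.0274 to 0.0815. No gene passed with limma on the lysate ratios (1973 unadjusted) or with the stricter filter of edgeR (filterByExpr, 1768 unadjusted), 7 passed with the bias-adjusted form of the quasi-likelihood test and 122 with DESeq2, 30 of them shared. Of the 55 named genes that passed, the log2 difference moved by over 1.5 times for 17 without knockin lysate 3 and for 4 without wild-type lysate 1, and it changed sign for 0 in either case. None of the 55 kept its call without wild-type lysate 1. The values of single lysates below carry the description, and an adjusted p applies to the paired edgeR test unless stated.

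**Figure D1:**
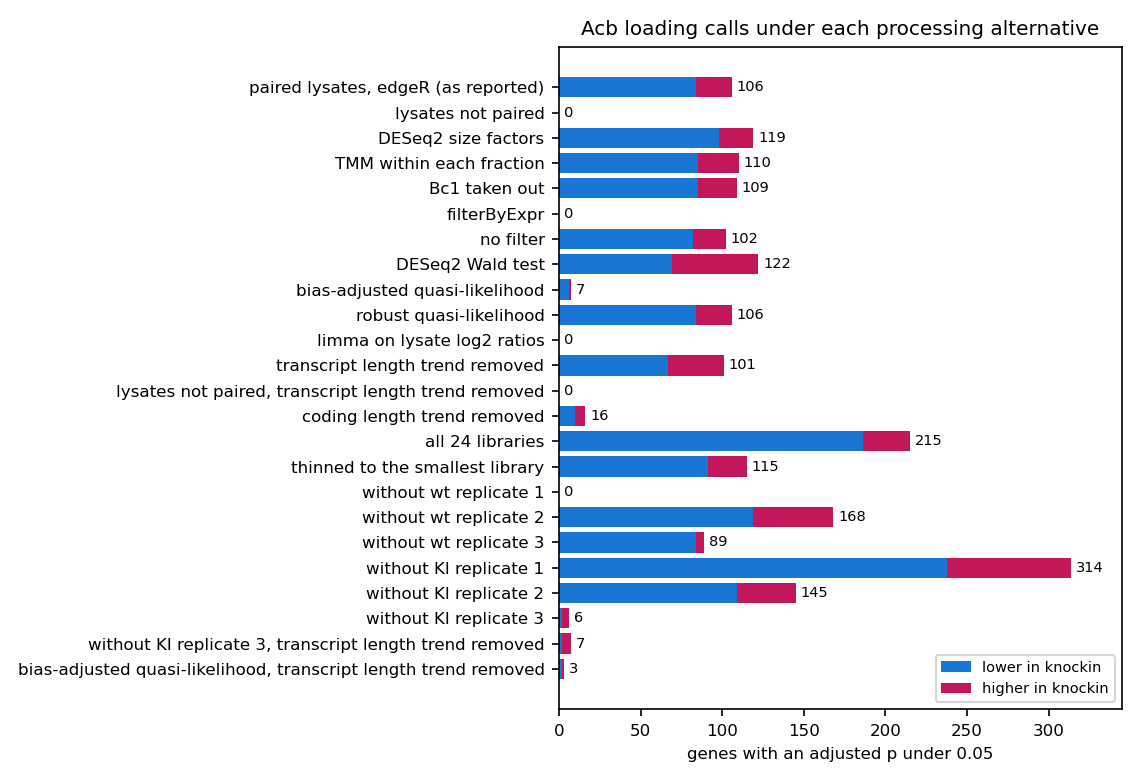
Number of genes with an adjusted p under 0.05 for the knockin difference in Acb loading (x axis) under each processing alternative (y axis), split into lower (blue) and higher (magenta) loading in knockin. The count was 106 as reported, 6 without knockin lysate 3 (KI replicate 3), 0 without wild-type lysate 1 (wt replicate 1) and 314 without knockin lysate 1.

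The 2 lysates at the ends were also the extremes of single genes. Among the 84 genes with lower loading in knockin, wild-type lysate 1 was the highest of the 6 lysates for 81 and knockin lysate 3 the lowest for 80. Their median loading was 1.71, 1.01 and 1.02 in wild-type lysates and 0.787, 0.65 and 0.363 in knockin lysates. Knockin lysates 1 and 2 thus also lay below the wild-type medians. With both extreme lysates left out, the difference of mean log2 ratios was below 0 for 83 of the 84 genes, with a median of −0.45 in place of −1.02. These genes were chosen on the same lysates, so that count describes them and tests nothing. The 6 lysates did not overlap between genotypes for 49 of the 84, and for 15 of the 22 genes with higher loading. Over the 12033 genes with at least 50 reads on average, the lysates did not overlap for 18.0%, lower in knockin for 8.42% and higher for 9.61%.

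For most genes that passed, the difference between genotypes was larger in heavy polysomal libraries than in whole lysates. For the 84 genes with lower loading, the median log2 difference between genotypes was −0.95 among heavy polysomal libraries and 0.04 among whole-lysate libraries, and the former was the larger in size for 83 of them. For the 22 genes with higher loading it was 0.81 and −0.14, and the former was the larger in size for 18. Taken alone, heavy polysomal fractions gave 0 of 16227 genes at an adjusted p under 0.05 (3518 at an unadjusted p under 0.05, lowest adjusted p 0.0898, edgeR). In these fractions the study did report genes that differed between genotypes, with DESeq2, which was not run here on them alone. Xtail, its tool for translational efficiency, was not used here either. Whole lysates gave 1 of 15393 genes at an adjusted p under 0.05 (0.00650%, with 455 unadjusted, edgeR). That gene was *Tmem38b*, a potassium-permeable channel subunit of the endoplasmic reticulum, which was also the gene with the smallest p for loading. Its whole-lysate level was 867 CPM in knockin lysate 3 and 48.5 to 138 CPM in the other 5 lysates, while its heavy polysomal level ran from 46.7 to 1012 CPM over the 3 wild-type libraries. Its log2 loading was 3.51, 3.63 and −1.56 in wild-type and 2.08, 0.07 and −2.93 in knockin lysates. The genotypes therefore overlapped despite a log2 difference of −2.41 ± 0.28 (SE of the fit). That SE is far smaller than the spread of the lysates. *Tmem38b* was named after its values were seen.

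Genes of the respiratory chain and ATP synthase were the largest group with a shared role among the lower genes. Of the 78 tested members of respiratory complexes I, III, IV and ATP synthase, 25 passed the test as lower in knockin and 1 as higher. Over all genes tested, 0.503% passed as lower and 0.132% as higher. These complexes sit in the inner mitochondrial membrane, where complexes I to IV pass electrons to oxygen and ATP synthase uses the resulting proton gradient. Complex IV (cytochrome c oxidase) had the lowest median of all lists, −0.86 on the log2 scale over 15 members, with 14 below 0 and 5 passing. Complex III followed with −0.83 (9 members, 4 passing), then ATP synthase with −0.72 (18 members, 7 lower and 1 higher) and complex I with −0.63 (36 members, 9 passing). The 4 genes of complex II (succinate dehydrogenase) had a median of −0.30 and none passed (1 lower and 1 higher at an unadjusted p under 0.05, edgeR). With knockin lysate 3 left out the medians were −0.61, −0.29, −0.44, −0.33 and −0.11 in the same order, and without wild-type lysate 1 they were −0.66, −0.61, −0.60, −0.51 and −0.27.

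*Cox7a2*, a small subunit of complex IV, showed the pattern in full. Its loading was 1.98, 1.01 and 1.12 in wild-type and 0.813, 0.593 and 0.374 in knockin lysates, so every knockin lysate lay below every wild-type lysate. The log2 difference was −1.21 ± 0.22 (SE), with an adjusted p of 1.8e-04, and −0.91 without knockin lysate 3, with an adjusted p of 0.0795. Without wild-type lysate 1 it was −0.91 as well, with an adjusted p of 0.480. *Cox6c*, another subunit, had a loading of 1.56, 0.825 and 0.971 in wild-type and 0.696, 0.62 and 0.252 in knockin lysates, again without overlap. Its log2 difference was −1.17 ± 0.22 and −0.71 without knockin lysate 3. *Cox7b* and *Cox6b1* also passed, with −1.05 ± 0.22 and −0.95 ± 0.22, which became −0.66 and −0.57 without knockin lysate 3.

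In complex III, *Uqcrh*, the hinge protein, had a loading of 1.82, 0.927 and 0.869 in wild-type lysates. In knockin lysates it was 0.811, 0.662 and 0.343, which left a narrow gap between the genotypes. The log2 difference was −0.99 ± 0.22 (adjusted p = 0.00435), and −0.63 without knockin lysate 3. *Uqcrb* lay higher in all lysates, with 2.69, 1.36 and 1.96 in wild-type and 1.04, 1.33 and 0.64 in knockin. Its groups nearly touched, and the difference was −1.01 ± 0.23. *Uqcrq* and *Uqcr10* fell by 0.95 and 0.94 on the log2 scale, and *Uqcrq* by 0.56 without knockin lysate 3.

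In complex I (NADH dehydrogenase), the accessory subunit *Ndufa1* had a loading of 1.35, 0.677 and 0.644 in wild-type and 0.528, 0.411 and 0.186 in knockin lysates. The groups did not overlap, and the log2 difference of −1.28 ± 0.24 became −0.85 without knockin lysate 3. *Ndufa4*, *Ndufb11* and *Ndufa3* passed with differences between −0.92 and −0.99, and *Ndufa4* had −0.59 without knockin lysate 3. In ATP synthase, the 2 small subunits *Atp5k* and *Atp5e* had differences of −1.28 ± 0.23 and −1.30 ± 0.24. The loading of *Atp5e* was 0.77, 0.581 and 0.365 in wild-type and 0.393, 0.188 and 0.15 in knockin lysates, so wild-type lysate 3 lay below knockin lysate 1. *Usmg5* and *Atp5j2*, which also belong to ATP synthase, had differences of −1.12 and −1.08, or −0.73 and −0.65 without knockin lysate 3, and *Usmg5* had −0.70 without wild-type lysate 1. *Atp5b*, the catalytic beta subunit and at 529 residues the longest of the ATP synthase genes that passed, went the other way: its log2 loading was −0.27, 0.05 and −0.60 in wild-type and 0.45, 0.30 and 0.79 in knockin lysates. Its difference was 0.79 ± 0.20 (adjusted p = 0.0279), and it is named after its values were seen.

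**Figure D2:**
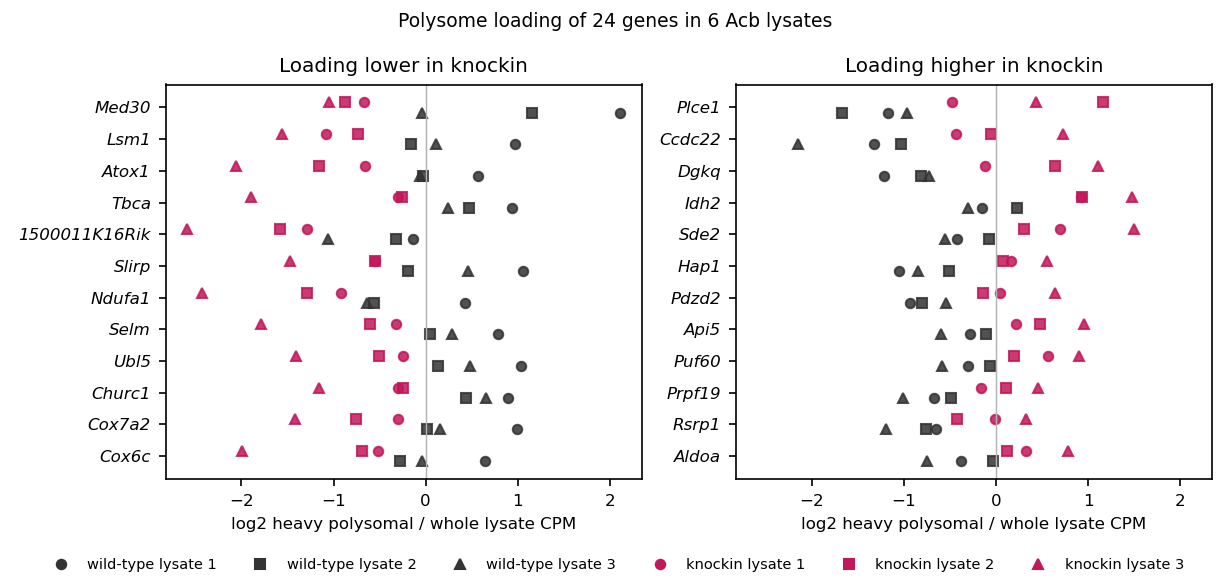
Loading in each Acb lysate (x axis, log2 ratio of heavy polysomal to whole lysate CPM after TMM scaling) for the 12 genes with the most negative difference (left) and the 12 with the most positive (right) among those that passed the test with a mean of 50 or more reads and lysates of the genotypes apart. Each point is 1 lysate, wild-type in grey and knockin in magenta. Among genes on the left, knockin lysate 3 (triangles) was the lowest of all lysates, and wild-type lysate 1 (circles) the highest.

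Other mitochondrial lists lay below 0 with fewer genes passing. Mitochondrial ribosomal proteins, which build the ribosomes that translate the mitochondrial genome, had a median of −0.41 over 77 members, 61 of them below 0. Of these, *Mrps21*, *Mrpl42* and *Mrpl20* passed, with differences of −1.08, −1.08 and −0.99, the first of them −0.66 without knockin lysate 3. Of 22 subunits of the import machinery (Timm and Tomm), 18 were below 0, the median was −0.42, and *Timm10* and *Timm22* passed. Their differences were −1.12 and −0.91, but *Timm10* had −0.74 without knockin lysate 3 and *Timm22* had −0.60 without wild-type lysate 1. *Slirp*, a protein that stabilises mitochondrial mRNAs, had a loading of 2.08, 0.876 and 1.37 in wild-type and 0.681, 0.684 and 0.36 in knockin lysates. These groups did not overlap, and the difference was −1.30 ± 0.27. Assembly factors of the respiratory complexes had a median of −0.40, with 25 of 32 below 0 and none passing. At an unadjusted p under 0.05 (edgeR) 5 were lower and 1 higher, against 6.07% and 5.44% of all genes tested. Without knockin lysate 3 the medians of mitochondrial ribosomal proteins, import and assembly factors were −0.25, −0.27 and −0.20, and without wild-type lysate 1 they were −0.30, −0.33 and −0.28.

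The qRT-PCR targets of the study were 8 mRNAs, which it reported as lower in heavy polysomal fractions by both RNA-seq and qRT-PCR. It found no change of them in total lysates. Those tests were on levels within a fraction, whereas the test here is on loading, so the outcomes are not like for like. Of these 8 mRNAs, 5 passed the test here, namely *Cox7a2*, *Slirp*, *Uqcrh*, *Uqcrb* and *Dbi*, the acyl-CoA binding protein, whose difference was −0.91 ± 0.22, or −0.58 without knockin lysate 3. *Cox7c* (−0.85 ± 0.26, adjusted p = 0.0803) and *Mrpl33* (−1.02 ± 0.32, adjusted p = 0.0982) did not, and *Mrpl33* had −0.36 without knockin lysate 3. *Timm8a1* had a loading of 1.13, 0.701 and 0.703 in wild-type and 1.06, 0.614 and 0.625 in knockin lysates, with a difference of −0.16 ± 0.38. The log2 difference in its level between genotypes was −1.03 among heavy polysomal libraries (unadjusted p = 0.00088, adjusted p = 0.0987, edgeR) and −0.84 among whole-lysate libraries (unadjusted p = 0.0047), where it did not pass after adjustment. These targets had been chosen on the same samples, so their direction is not independent evidence.

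Enzymes of the same organelle and of sugar breakdown did not share the direction of the respiratory chain. All 13 genes of the tricarboxylic acid cycle and all 17 of glycolysis had differences above 0, with medians of 0.51 and 0.61. Of these 2 lists 1 gene passed, *Aldoa*, the glycolytic aldolase, with a loading of 0.77, 0.974 and 0.594 in wild-type and 1.26, 1.09 and 1.72 in knockin lysates. Every knockin lysate was above every wild-type lysate, and the difference was 0.80 ± 0.20 (adjusted p = 0.0216). At an unadjusted p under 0.05 there were 9 glycolytic and 7 tricarboxylic acid cycle genes, all higher, where 5.44% of all genes tested were higher at that threshold. *Mdh2*, mitochondrial malate dehydrogenase, had a difference of 0.68 ± 0.22 and an adjusted p of 0.106. *Idh2*, a mitochondrial isocitrate dehydrogenase that uses NADP and is not in the list of the cycle, passed with 1.19 ± 0.33. Its loading went from 0.898, 1.17 and 0.811 in wild-type to 1.89, 1.91 and 2.78 in knockin lysates. The log2 difference in its level was 0.57 among heavy polysomal libraries and −0.64 among whole-lysate libraries. Without knockin lysate 3 the medians were 0.43 for the cycle and 0.40 for glycolysis, and without wild-type lysate 1 they were 0.50 and 0.53.

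The cytosolic translation machinery was split in the same way. Proteins of the large and the small ribosomal subunit both had a median of −0.48, with 42 of 50 and 30 of 34 below 0, and 3 passed: *Rpl39*, *Rpl38* and *Rps21*. The other 5′ TOP mRNAs, which include elongation factors, had a median of 0.15 with 12 of 16 above 0 and none passing (1 at an unadjusted p under 0.05). *Eef1a1*, the elongation factor that delivers aminoacyl-tRNA, had a loading of 0.582, 0.546 and 0.4 in wild-type and 0.536, 0.541 and 0.612 in knockin lysates, which overlapped. All 20 cytosolic tRNA ligases lay above 0, with a median of 0.41 and none passing (5 unadjusted). All 8 subunits of the CCT chaperonin, which folds actin and tubulin, lay above 0 with a median of 0.50, none passing (6 unadjusted), while all 5 tested subunits of prefoldin, the small cochaperone that hands proteins to it, lay below 0 with a median of −0.68, none passing (4 unadjusted). Initiation factors had a median of 0.11, and 1, *Eif1b*, passed with −0.91 ± 0.24. Ribosome biogenesis genes had a median of 0.22, with 15 of 20 above 0, and 8 higher and 3 lower at an unadjusted p under 0.05 (edgeR). The 1 that passed, *Nop10*, of the particle that guides pseudouridylation, went against the list at −1.02 ± 0.26. Over all genes tested, 5.44% were higher and 6.07% lower at that unadjusted threshold. Genes of the mTOR and rpS6 kinase pathway had a median of 0.07 and mRNAs with upstream reading frames −0.44, none passing (3 and 0 unadjusted). After leaving out knockin lysate 3 the large and small ribosomal subunits had medians of −0.29 and −0.32, and without wild-type lysate 1 both were near these values (−0.32 and −0.33).

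The first bases of some of these mRNAs are shown because a pyrimidine tract at the start defines the 5′ TOP class. Each window runs from 5 bases before to 20 bases from 1 annotated RefSeq start per gene (GRCm38.p6), 5′ to 3′ on the gene's strand. A C followed by at least 4 pyrimidines is in capitals where it begins within 5 bases of that start. For *Rpl38* and *Cox7a2* that start lies inside the annotated gene, whose outer 5′ end is at 114667818 for *Rpl38* and 79771422 for *Cox7a2*. Other starts of these genes were not searched. The window of *Rps6* lies at chr4:86857348-86857372 (minus strand), that of *Rps21* at chr2:180257374-180257398 (plus), that of *Rpl38* at chr11:114668575-114668599 (plus) and that of *Cox7a2* at chr9:79759834-79759858 (minus).
Rps6: cgggcCTCTTTTTCgtgacgcctcc
Rps21: ccgccCTCCTgcccaatagtgctgc
Rpl38: tcgttCTTTCCCCgttctcttcggt
Cox7a2: aggctagacgggccgctgcgagaag

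*Rps6*, *Rps21* and *Rpl38* had such a tract at the first base, and *Cox7a2* had none in this window. Among them, *Rps21* had a loading of 0.487, 0.316 and 0.234 in wild-type and 0.253, 0.15 and 0.111 in knockin lysates, and *Rpl38* had 0.885, 0.523 and 0.54 against 0.501, 0.415 and 0.212. *Rpl38* did not overlap between genotypes and *Rps21* did, with differences of −0.83 ± 0.23 and −1.03 ± 0.22. Without knockin lysate 3 *Rpl38* had −0.47. The tract was found within 5 bases of the start for 19.9% of the 12284 tested genes with a RefSeq window. It was found for 29 of 62 cytosolic ribosomal protein genes and for 15 of 66 genes with lower loading. For respiratory complexes I, III, IV and ATP synthase it was 17 of 62. *Cox7a2* does not stand for all of these, as *Atp5e* had a tract beginning 4 bases after its start. Ribosomal protein genes with the tract had a median log2 difference of −0.45 and those without it −0.46, and over all genes tested the medians were 0.05 and 0.04. The search covered 1 strand and 1 annotated start per gene.

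Small proteins of RNA handling formed a further group. Of 16 Sm and Lsm proteins, which form rings on small nuclear RNAs and on mRNAs about to be degraded, 14 were below 0, with a median of −0.74. *Lsm1*, part of the cytoplasmic decay ring, had a loading of 1.97, 0.897 and 1.08 in wild-type and 0.474, 0.603 and 0.339 in knockin lysates, and the difference was −1.45 ± 0.38 (adjusted p = 0.0288) without overlap. *Lsm7* passed with −1.24 ± 0.31, which was −0.80 without wild-type lysate 1. Subunits of RNA polymerase II had a median of −0.57 with 12 of 13 below 0, none passing. At an unadjusted p under 0.05 (edgeR) 8 were lower, against 6.07% of all genes tested. *Med30*, a subunit of the Mediator complex, had the most negative difference among genes without overlap, −1.98 ± 0.49, from 4.31, 2.23 and 0.976 in wild-type to 0.628, 0.544 and 0.482 in knockin lysates. It had 201 reads per library on average. Its difference was −1.89 without knockin lysate 3, and the median of Sm and Lsm proteins was −0.42 (−0.54 without wild-type lysate 1).

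Of the genes annotated as long noncoding RNAs 4 passed, all lower. How many of that annotation were tested was not counted, so their share is not known. Over all genes tested, 0.503% passed as lower and 0.132% as higher. *Bc1*, in the list of nuclear and neuronal noncoding RNAs, had a difference of −0.67 ± 0.14. BC1 is a short dendritic RNA that is not translated, and its loading was 0.147, 0.0973 and 0.0277 in wild-type and 0.0638, 0.0347 and 0.0462 in knockin lysates. These overlapped, and the wild-type lysates spanned more than the difference between genotypes. Without wild-type lysate 1 the difference was −0.16. The other 3, named after their values were seen, were *Dlx6os1* (−1.14 ± 0.27), *Pou3f3os* (−1.15 ± 0.28) and *1700086L19Rik* (−1.07 ± 0.29). *Dlx6os1* and *1700086L19Rik* did not overlap between genotypes, and the former had a log2 loading of 0.59, 0.46 and 0.56 in wild-type and −0.46, −0.31 and −1.05 in knockin lysates. The list of nuclear and neuronal long noncoding RNAs had a median of −0.45, with 8 of 10 below 0. Hosts of small nucleolar RNAs had −0.40, with 8 of 9 below 0, where 47.7% of all genes tested were below 0. For *Bc1* and the other noncoding members a ratio of heavy polysomal to total RNA does not measure translation.

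Other genes that passed as lower had these values. *Pcp4*, a calmodulin regulator, had a log2 loading of 0.62, −0.57 and −0.68 in wild-type and −0.49, −1.36 and −1.94 in knockin lysates. *Tmsb4x*, a thymosin that binds actin monomers, had 0.10, −0.99 and −1.61 against −1.23, −2.13 and −2.50. Both overlapped between genotypes in spite of differences of −1.05 ± 0.22 and −1.12 ± 0.21, because wild-type lysates 2 and 3 lay near or below knockin lysate 1. The 3 metallothioneins *Mt1*, *Mt2* and *Mt3*, which bind zinc and copper, passed, *Mt1* with −1.03 and *Mt2* with −1.05, and the copper chaperone *Atox1* had −1.45 ± 0.29. *Atox1* did not overlap, with 1.49, 0.979 and 0.957 in wild-type and 0.632, 0.448 and 0.24 in knockin lysates. *Tbca*, a tubulin folding cofactor, had a loading of 1.92, 1.39 and 1.18 in wild-type and 0.813, 0.834 and 0.268 in knockin lysates, without overlap and with a difference of −1.36 ± 0.24, or −0.84 without knockin lysate 3. *Pcp4*, *Tmsb4x* and the metallothioneins are named here after their values were seen. Thymosin, ribosomal protein and small respiratory subunit genes have near-identical processed copies in the genome, and how the counting shared reads among copies was not tested.

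*Ubl5*, a ubiquitin-like protein, *Churc1*, *Selm* and *1500011K16Rik*, annotated as protein-coding, completed the 12 most negative genes. Their differences were −1.27, −1.23, −1.27 and −1.31, and *Selm* had −0.84 without knockin lysate 3. *Ubl5* had a loading of 2.06, 1.09 and 1.4 in wild-type and 0.843, 0.702 and 0.378 in knockin lysates. It was 1 of 7 genes that passed in the bias-adjusted test as well (adjusted p = 0.0463), where *Cox7a2*, *Atp5e*, *Tbca*, *Atox1* and *Churc1* also had lower and *Hap1* higher loading. *Ubl5* had a difference of −0.93 and an adjusted p of 0.0921 when knockin lysate 3 was left out.

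The vacuolar ATPase (median 0.20, 20 members), the proteasome (0.15, 39), heat shock proteins (0.25, 12) and clathrin with its adaptor (0.25, 10) lay slightly above 0, and of these 1 gene passed, the proton pump subunit *Atp6v1f* with −0.89 ± 0.23, or −0.58 without knockin lysate 3.

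Lists of neuronal function showed few calls. Of 22 genes of striatal dopamine and cAMP signalling, the median was −0.11 and 1 passed: *Gng7*, the G protein gamma subunit of the striatal stimulatory pathway. Its loading was 1.04, 0.701 and 0.843 in wild-type and 0.71, 0.381 and 0.444 in knockin lysates, a slight overlap at the edge, with a difference of −0.79 ± 0.21. Of 44 kinesins and dyneins, *Dynll1*, the dynein light chain, passed with −0.85 ± 0.22. Glutamate and GABA receptors (37 members, median 0.19), potassium channels (83, median 0.07), sodium and calcium channels (36, median −0.05), synaptic vesicle genes (25, median 0.27), neuropeptides and granins (15, median 0.33) and dendritic mRNAs (15, median −0.15) gave no gene that passed in edgeR. At an unadjusted p under 0.05, receptors had 3 genes higher, potassium channels 4 higher and 3 lower, sodium and calcium channels 2 lower, synaptic vesicle genes 5 higher and 1 lower, neuropeptides 4 higher and 1 lower and dendritic mRNAs 2 in each direction. Over all genes tested, 5.44% were higher and 6.07% lower at that threshold, and the counts for receptors and channels lay near these shares. *Penk*, the enkephalin precursor of indirect-pathway neurons, had a difference of 0.33 ± 0.20. Among marker lists of 7 cell types, *Mobp*, a myelin protein, was the gene that passed, with −0.84 ± 0.23.

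The genes with higher loading encoded larger proteins, and 17 of the 22 belonged to none of the lists. *Hap1*, the huntingtin-associated trafficking protein, had the smallest adjusted p of them. Its loading was 0.482, 0.699 and 0.554 in wild-type and 1.12, 1.05 and 1.46 in knockin lysates, so the groups were well apart. The difference was 1.07 ± 0.22 (adjusted p = 0.00138), and 0.93 without knockin lysate 3, with an adjusted p of 0.0597. *Pdzd2*, a protein with PDZ domains, also passed among the 13 trafficking genes named by the study, with 0.94 ± 0.24. The median of those 13 was 0.45, with 10 above 0, and they too were chosen by the study on these samples.

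*Plce1*, *Ccdc22* and *Dgkq* had the largest positive differences among genes that passed without overlap and had 50 or more reads on average. These were 1.64 ± 0.43, 1.59 ± 0.42 and 1.47 ± 0.36, at 234, 228 and 356 reads per library on average. For *Plce1* the larger part lay in whole lysates, with a log2 difference of −1.14 there and 0.46 among heavy polysomal libraries. *Dgkq*, a diacylglycerol kinase, had a loading of 0.43, 0.566 and 0.601 in wild-type and 0.922, 1.56 and 2.15 in knockin lysates. Several others act in splicing: *Puf60*, *Prpf19* and *Rsrp1* had differences of 0.87 ± 0.24, 0.86 ± 0.23 and 0.84 ± 0.23. *Prpf19*, a core splicing ligase, went from 0.628, 0.713 and 0.497 in wild-type to 0.893, 1.08 and 1.38 in knockin lysates. *Sde2* and *Api5* passed with 1.18 ± 0.31 and 0.88 ± 0.24. *Tuft1* passed with a fitted difference of 5.78 but had at most 2 reads in each knockin whole lysate, so its size is not interpretable. It is named after its values were seen.

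*Lars2*, the mitochondrial leucyl-tRNA ligase, was higher in knockin by 0.88 ± 0.19 (adjusted p = 0.00289). Its loading was 0.787, 1.73 and 0.367 in wild-type and 2.67, 1.96 and 0.567 in knockin lysates, with wide spread and overlap. With knockin lysate 3 left out the difference was 1.53 (adjusted p = 5.7e-13, edgeR) and without wild-type lysate 1 it was 0.86, with an adjusted p of 0.480 in the latter. Over all 6 lysates left out in turn it ran from 0.32, without wild-type lysate 3, to 1.53. Its whole-lysate level had a median of 1020 CPM per kilobase of transcript, where the medians of the other 16 mitochondrial tRNA ligases lay between 0.85 and 10.3. *Mir6236* (0.90 ± 0.24) and *Rn45s*, the precursor of ribosomal RNA (0.59 ± 0.17, adjusted p = 0.0537), shared its order of lysates in part: the log2 loading of *Rn45s* was 0.04, 1.14 and −1.37 in wild-type and 1.08, 1.15 and −0.67 in knockin lysates. Lysate 3 was the lowest of each genotype for all of these. Whether reads of ribosomal RNA were assigned to *Lars2* was not tested, and *Mir6236* and *Rn45s* are named after their values were seen.

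**Figure D3:**
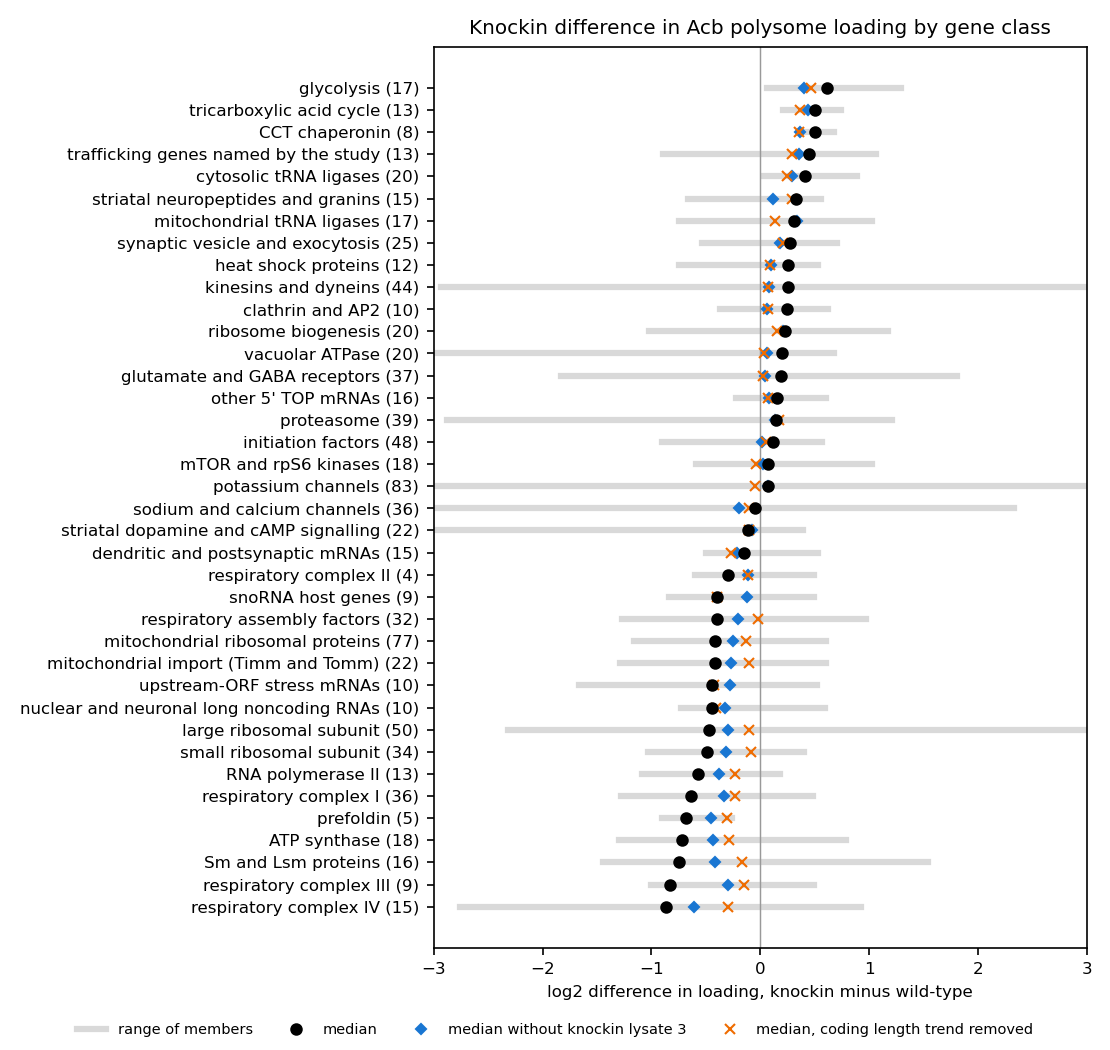
Knockin minus wild-type log2 difference in Acb loading (x axis, drawn from −3 to 3, so that wider ranges are clipped) for each gene list (y axis, number of genes tested in parentheses). Grey bars span the members, black dots are medians, blue diamonds medians without knockin lysate 3, and orange crosses medians after a trend on coding length was removed. Complex IV had the lowest median (−0.86) and glycolysis the highest (0.61), and medians without knockin lysate 3 or without the length trend lay nearer to 0 for both.

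Across all genes the difference followed the length of the protein, though not evenly over lysates. Shortest minus longest quintile, in median log2 loading, was 1.34, 0.899 and 0.854 in wild-type lysates. In knockin lysates it was 0.763, 0.666 and 0.008. The quintile values below include all lysates and were not computed with any left out. In the shortest quintile, 37 to 259 residues, 1975 of 2353 genes (83.9%) had a difference below 0, the median was −0.41, and 77 passed as lower and 0 as higher. In the 3 quintiles of longest proteins the medians were 0.15, 0.18 and 0.16, with 16 genes passing as higher and 1 as lower. Of the 79 lower genes with a known protein length, 77 fell into the shortest quintile. The longest was *Srf* with 504 residues, the serum response factor, named after its values were seen, whose log2 loading was 0.31, 0.71 and 0.30 in wild-type and 0.10, −0.92 and −0.79 in knockin lysates.

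Length also divided the lists, in values that again include all lysates. Among respiratory complexes I, III, IV and ATP synthase, all 61 members of up to 259 residues with at least 50 reads on average lay below 0 (median −0.76), whereas 11 of the 14 longer members lay above 0 (median 0.28). For cytosolic ribosomal proteins the medians were −0.53 (67 short members) and 0.05 (11 longer), and for mitochondrial ribosomal proteins −0.53 (55) and −0.06 (22). Short genes outside these and the mitochondrial lists had a median of −0.40 over 2132 genes, with 1765 below 0 and 44 passing as lower. The difference between short respiratory genes and other short genes was not tested. They also differed in length within the class, with a median of 120 residues in the former and 190 in the latter.

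When a smooth trend on coding length was removed from each library, 16 genes passed, 10 lower and 6 higher, 10 of them among the 106. The medians became −0.30 for complex IV, −0.29 for ATP synthase, −0.23 for complex I, −0.15 for complex III, −0.10 for the large and −0.09 for the small ribosomal subunit. Those of glycolysis and the tricarboxylic acid cycle became 0.46 and 0.37. With a trend on transcript length removed instead, 101 genes passed, 67 lower and 34 higher, 53 of them shared. *Cox7a2* then had a difference of −0.79 and *Slirp* of −1.38.

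**Figure D4:**
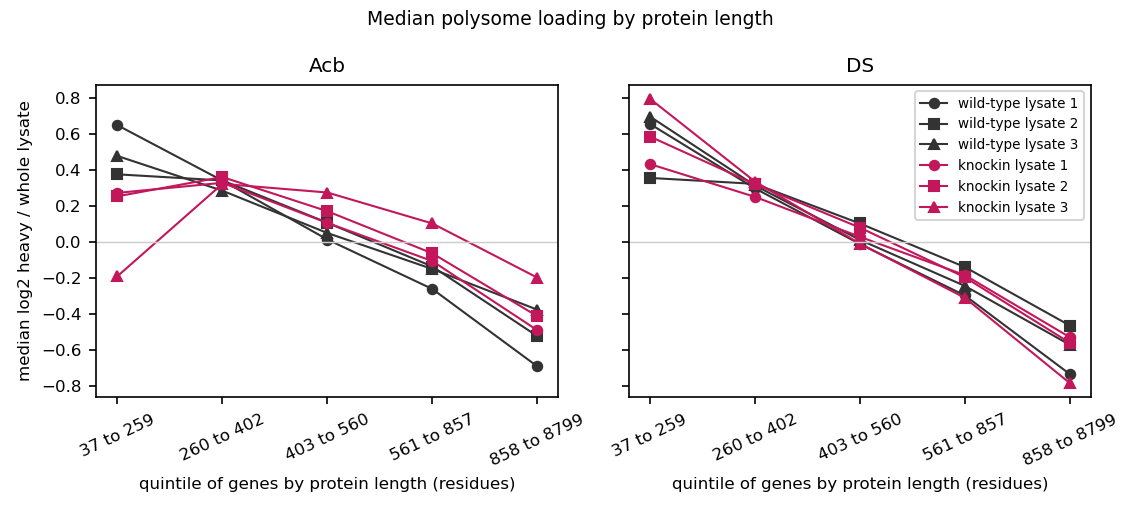
Median log2 loading (y axis) over quintiles of genes by protein length (x axis, residues), with 1 line per lysate, wild-type in grey and knockin in magenta, in Acb (left) and DS (right). In the shortest quintile the 3 knockin Acb lysates (0.28, 0.26 and −0.19) lay below the wild-type lysates (0.65, 0.38 and 0.48), and knockin lysate 3 was far from the others; in DS the genotypes were interleaved.

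The same comparison in the DS gave 6 of 16544 genes (0.0363%), all with higher loading in knockin. They were *Pcp4*, *Mt1*, *Tmsb4x*, *Tmsb10*, *Cox8a* and *Ramp1*, of which *Pcp4*, *Mt1*, *Tmsb4x* and *Tmsb10* had lower loading in the Acb. These 6 are named after their values were seen. *Pcp4* had a log2 difference of 0.93 ± 0.19 in the DS and −1.05 ± 0.22 in the Acb, and *Mt1* had 1.10 ± 0.22 and −1.03 ± 0.23. Of the 84 genes with lower loading in the Acb, 79 had a difference above 0 in the DS, with a median of 0.48, where 8038 of 16054 genes tested in both regions did. For the 22 genes with higher loading in the Acb the DS median was 0.06. The DS calls also rested on single lysates and on the test: 0 genes passed with lysates unpaired (811 at an unadjusted p under 0.05, edgeR) and 0 without knockin lysate 3 of the DS (674 unadjusted).

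Tested directly, the knockin difference in loading was not the same in the 2 regions for 187 of 17365 genes (1.08%). It was lower in the Acb than in the DS for 180 (1.04%) and higher for 7 (0.0403%). This comparison uses the Acb libraries again, so its overlap with the Acb calls is no separate evidence: 69 of the 84 lower genes were among the 180, which is 82.1% of the former and 38.3% of the latter. For *Cox7a2* the DS value was 0.62 and the difference between regions −1.87. For *Atp5e* the values were 0.87 and −2.21. *Hap1* was near 0 in the DS (−0.07), and the difference between regions was 1.10. The count dropped to 51 without knockin lysate 3 of the Acb, 43 without wild-type lysate 1 of the Acb and 24 without wild-type lysate 2 of the DS. No gene passed with lysates unpaired (1623 at an unadjusted p under 0.05).

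**Figure D5:**
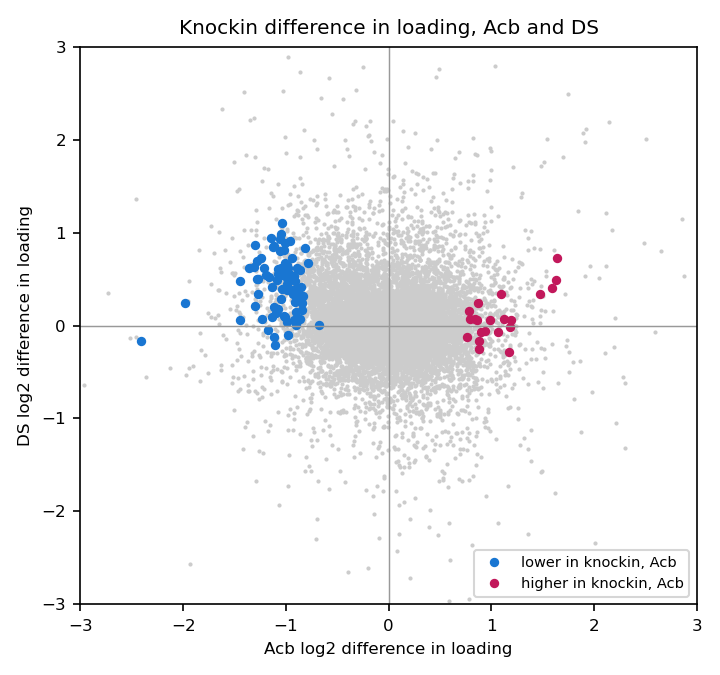
Knockin minus wild-type log2 difference in loading in the Acb (x axis) and in the DS (y axis), both drawn from −3 to 3, for genes with at least 50 reads on average (grey). Genes that passed the Acb test are in blue (lower in knockin) and magenta (higher); 79 of the 84 blue genes lay above 0 in the DS.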

How the data were processed

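The authors aligned 50-base single-end reads of poly(A)-selected, stranded libraries to mm10 with TopHat2 2.0.13 and Bowtie2 2.2.3, discarded alignments with over 3 mismatches, and deposited raw HTSeq 0.6.1p1 counts per gene. Libraries had been sequenced repeatedly because of bacterial sequences. Reads were not aligned again, and the count table was used as deposited, for 24079 genes.

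A gene entered a comparison with 15 or more reads summed over its libraries. Loading was tested with edgeR 4.0.16 in R 4.3.3 (TMM scaling, quasi-likelihood F test with legacy settings), with 6 lysate terms and a heavy minus total term for each genotype, and the contrast of those terms. p-values were adjusted by Benjamini-Hochberg over all genes. Loading per lysate is the ratio of CPM after TMM scaling (prior count 2 on the log2 scale). Errors are standard errors of the fit, whose gene-wise spread was shrunk fully to the trend over genes. Replicates are lysates of pooled mice, and the number of mice pooled differs between the sources used here. Heavy and total libraries were paired by genotype and replicate number. The extraction protocol takes both kinds of RNA from the same lysate, but the labels do not say that the number marks it. Deviations from group means correlated within these pairs by −0.0274 to 0.0815, 0 of 6 above 0.1.

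Lengths came from GENCODE M21 (20427 genes with a coding length) and sequences from RefSeq (GRCm38.p6). Alternatives used limma 3.58.1, DESeq2 1.42.0, other filters and scalings, trends on length (loess, span 0.5) and each lysate left out. The code was tested on simulated data. Figures were drawn with Python 3.11.15 and matplotlib 3.10.9. Members of the 45 gene lists, the tests and the rule for genes named were chosen with earlier results of these data known. Genes named were *Rps6*, the 12 largest differences per direction among genes that passed, had a mean of 50 or more reads and kept the lysates of both genotypes apart, the qRT-PCR genes of the study, and per list the genes that passed (up to 4) or the 2 with most reads. Genes named outside it are marked as named after their values were seen. Enriched terms were not computed.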

Additional observations from a re-analysis of the deposited data

Results flagged for a closer look

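The difference in knockin effect on loading between Acb and DS was tested as the interaction of genotype, kind of RNA and region (edgeR quasi-likelihood test, paired lysates). It passed an adjusted p of 0.05 for 187 genes, and among the genes named by rule for 41. The values here are log2 differences, Acb minus DS, and a negative value means that the knockin effect was lower in the Acb. In the respiratory chain they were −2.02 for *Ndufa1*, −1.67 for *Ndufa3*, −1.02 for *Ndufa4*, −1.54 for *Uqcrh*, −1.13 for *Uqcrb*, −1.51 for *Uqcrq*, −1.70 for *Uqcr10*, −1.87 for *Cox7a2*, −1.73 for *Cox6c*, −1.37 for *Cox7b*, −1.37 for *Cox6b1* and −1.48 for *Cox7c*. In ATP synthase they were −2.21 for *Atp5e*, −2.01 for *Usmg5*, −1.82 for *Atp5k* and −1.67 for *Atp5j2*. For other mitochondrial proteins they were −1.72 for *Mrpl42*, −1.61 for *Mrps21*, −1.44 for *Mrpl20*, −1.81 for *Mrpl33*, −1.42 for *Timm22* and −1.55 for *Slirp*.

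Ribosomal and RNA-handling genes had values of −1.90 for *Rpl39*, −1.62 for *Rps21*, −1.19 for *Rpl38*, −1.88 for *Nop10*, −2.01 for *Lsm7* and −2.27 for *Med30*. The remaining lower values were −2.01 for *Tbca*, −1.96 for *Atox1*, −1.81 for *Selm*, −1.65 for *Ubl5*, −1.34 for *Churc1*, −1.99 for *1500011K16Rik*, −1.56 for *Atp6v1f*, −1.51 for *Gng7*, −1.30 for *Dynll1*, −1.20 for *Dbi* and −0.72 for *Bc1*. *Hap1* (1.10) and *Lars2* (1.09) had positive values. The count of 187 rested on single lysates of both regions, as given with the comparison of regions.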

How the results depend on the processing

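The Acb count of 106 genes became 0 with no block for replicate pairing, 0 without it and with the transcript length trend removed, 0 with filterByExpr, 0 with limma, 7 with the bias-adjusted test, 16 with the coding length trend removed and 215 with all 24 libraries in 1 fit. Leaving out each lysate gave 0 to 314 genes. DESeq2 size factors, scaling within each fraction, no *Bc1*, no filter, the robust fit, thinning, DESeq2 and the transcript length trend gave 101 to 122 genes. Chosen after seeing the data, leaving out knockin lysate 3 with the transcript length trend removed gave 7, and the bias-adjusted test with that trend removed gave 3. The DS count of 6 became 0 with no block, with DESeq2, with the transcript length trend removed and with the bias-adjusted test, and ranged from 0 to 56 with each lysate left out. The count for the difference between regions, 187, became 0 with no block, 29 with DESeq2, 72 with the transcript length trend removed, 73 with the bias-adjusted test, and 24 to 251 with each lysate left out. For the genes named, the side of the threshold was kept in 1862 refits, the call was lost in 623, gained in 8, and the sign of a called value turned in 0. The 1862 include genes that did not pass, some of which changed sign, such as *Timm8a1* (−0.42 to 0.44). Causes of these shifts were not tested. The smallest log2 difference that passed was −0.67 (*Bc1*). Its lysates overlapped between genotypes, and the difference was −0.16 without wild-type lysate 1. That value therefore does not mark what 3 lysates per genotype can detect.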
